A study of Mus musculus with 27 samples.

Results

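The collagen genes are described here as 44 of the 22340 rows of a gene count table from mouse cerebral cortex, taken by symbol alone: Col, a number, a and a number. All 44 passed the filter on low counts, so none is left out of the tests. Cortex came from C57BL6 wildtype mice aged 7 to 8 weeks. A nylon suture was advanced from the right external carotid artery to block the middle cerebral artery for 35 min, with the common carotid artery ligated, and was then withdrawn for reperfusion. The ipsilateral cortex, on the side of the suture, and the contralateral cortex were each sampled at 3, 6, 12 and 24 h of reperfusion, and sham animals were anaesthetised with their arteries exposed but no filament inserted. Each of the 9 groups has 3 libraries of rRNA-depleted total RNA, and within a group each replicate number stands for another day of surgery. A block for surgery day, as used below, is a block for replicate number. It takes equal numbers in different groups as the same day. Whether a contralateral and an ipsilateral sample share an animal is not stated in the labels, and neither is the hemisphere or time of the sham samples.

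Collagens are extracellular proteins of 3 chains wound into a triple helix. Fibrillar collagens (types I, II, III, V, XI, XXIV and XXVII) form the fibres of connective tissue, and in the brain these lie mainly in the meninges and around larger vessels. Type IV chains form the sheet-like network of basement membranes, including the one that wraps every brain capillary. Other families sit on fibres, form beaded filaments or span the plasma membrane, and a few, among them types XIX and XXV, are made by neurons. Newly made chains are hydroxylated and folded in the endoplasmic reticulum, exported, trimmed and cross-linked by lysyl oxidases.

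Library totals ran from 26505996 to 48830897 counts. Levels of one gene are given in CPM, counts scaled to the size of the library by TMM, and levels of different genes are compared in RPKM, the same CPM per kilobase of annotated exon. Differences are log2 fold changes with their SE from the quasi-likelihood F-test of edgeR, and a gene is said to have risen or fallen where the Benjamini-Hochberg adjusted p over 18087 tested genes was under 0.05. Contralateral 3 h replicate 1 and ipsilateral 24 h replicate 1 stood apart from the other libraries in base composition or mitochondrial rRNA, and where the second decides a 24 h call named here, the value without it is given. Bulk cortex cannot tell apart more RNA per cell and more cells of a type.

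The level of the collagens in cortex was uneven. Averaged over the 27 libraries, Col4a1 had 9.47 RPKM and Col4a2 8.92 RPKM. The next were Col19a1 with 5.16, Col6a1 with 4.80 and Col25a1 with 4.48 RPKM, and then Col11a2 with 1.68, Col16a1 with 1.60, Col23a1 with 1.57, Col9a3 with 1.45 and Col5a1 with 1.42 RPKM. The lowest was Col6a6 with 0.0221 RPKM, from 2 to 22 counts per library. The major fibrillar chains of skin and bone were low, Col1a2 at 1.16 RPKM, Col1a1 at 0.826 RPKM and Col3a1 at 0.523 RPKM. With the longest transcript in place of all exons as the length, Col1a2 ranked 6 instead of 12 and Col6a2 10 instead of 15, while Col4a1 and Col4a2 stayed at 1 and 2.

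**Figure D1:**
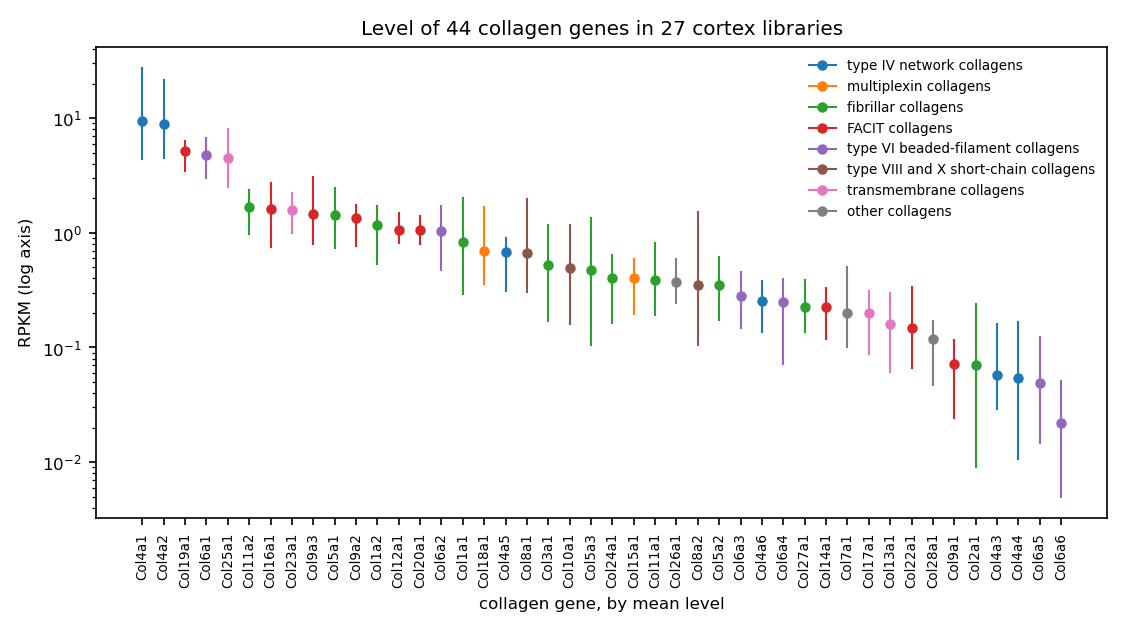
Level of each of the 44 collagen genes in RPKM on a log axis, ordered by mean over 27 libraries; points are means, lines run from the lowest to the highest library, and colour marks the family. Col4a1 (9.47 RPKM) and Col4a2 (8.92 RPKM) lead, and Col6a6 (0.0221 RPKM) is last.

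At 24 h of reperfusion 10 of 44 collagens were higher in ipsilateral than in contralateral cortex and 0 were lower; among all tested genes 9.74% rose and 9.36% fell. The 10 were Col4a1, Col4a2, Col18a1, Col5a2, Col5a3, Col2a1, Col11a1, Col16a1, Col7a1 and Col10a1. The median log2 fold change of the 44 was 0.313, beside 0.0279 over all tested genes. At 12 h 4 rose (Col4a1, Col5a3, Col2a1, Col6a2) and 1 fell (Col19a1), against 7.94% and 4.30% of all genes. At 6 h 1 rose (Col5a3) and 0 fell, against 5.85% and 2.14% of all genes. At 3 h none passed the test in edgeR, where 0.232% of all genes rose and 0.0166% fell. There 7 of 44 collagens had an unadjusted p under 0.05, beside 1939 of the 18087 tested genes. The smallest adjusted p of a collagen was 0.133 (Col9a3), and DESeq2 called 1. In the mean of the 4 effects 13 rose and 1 fell, against 17.7% and 15.3% of all genes. With a block for surgery day Col10a1 also passed at 6 h (adjusted p = 0.0363), and Col4a4 and Col6a3 in the mean of the 4 effects (adjusted p = 0.0445 and 0.0497), while with a block for surgery day within each time Col11a1 no longer passed in that mean (adjusted p = 0.0831). The shares at 6 and 12 h and in the fall at every time are near or below those of all genes. The shares that rose at 24 h, 10 of 44, and in the mean, 13 of 44, are above them. Without contralateral 3 h replicate 1 and ipsilateral 24 h replicate 1 together, Col11a1, Col18a1 and Col5a2 no longer passed in the mean (adjusted p = 0.0810, 0.0736 and 0.114). Col18a1 was also lost there without ipsilateral 24 h replicate 1 alone (adjusted p = 0.0619), and Col5a2 in 13 of the 24 fits that leave out 1 library. The 24 h count was 6 without ipsilateral 24 h replicate 1, and 6, with Col3a1 among them, without contralateral 24 h replicate 1. The 12 h count of 5 was 2 without ipsilateral 12 h replicate 1 or 3 or contralateral 12 h replicate 3. It was 3 without contralateral 12 h replicate 2 and 8 without ipsilateral 12 h replicate 2. The shares of all genes in these and later fits without 1 library are not given here. Whether the collagen shares in these fits are above them is therefore not shown.

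**Figure D2:**
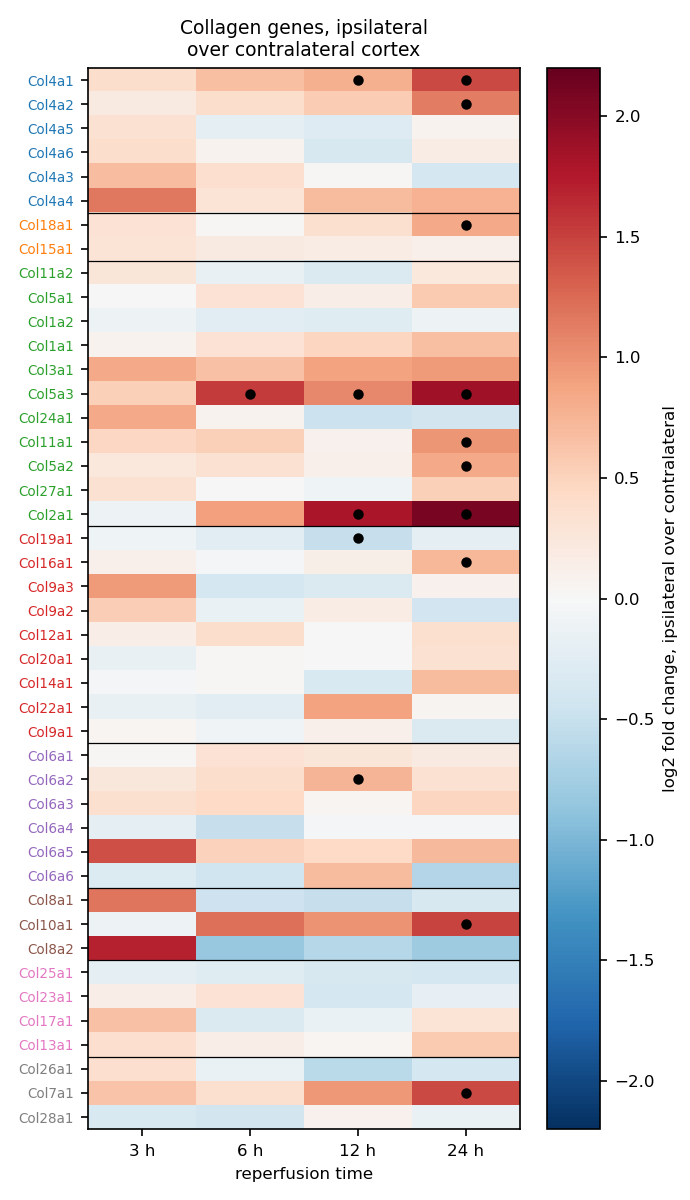
Log2 fold change of ipsilateral over contralateral cortex for the 44 collagen genes at 4 reperfusion times, grouped by family (label colour and horizontal lines, families from top to bottom in the order type IV, multiplexin, fibrillar, FACIT, type VI, types VIII and X, transmembrane, other); black dots mark an adjusted p under 0.05. The dots gather at 24 h, where 10 genes carry one, against 5 at 12 h and 1 at 6 h.

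Col4a1 and Col4a2 encode the paired chains of the main type IV network of vessel basement membranes, and both rose. At 24 h Col4a1 had 203, 102 and 96.6 CPM in ipsilateral libraries, against 40.4, 47.7 and 57.6 CPM in contralateral ones. Col4a2 had 142, 78.5 and 73.0 CPM in ipsilateral libraries, against 37.4, 48.5 and 48.0 CPM in contralateral ones. For both genes every ipsilateral library lay above every contralateral and every sham library, and ipsilateral replicate 1 was the highest of the 27. The log2 fold change was 1.46 ± 0.25 (SE) for Col4a1, with an adjusted p of 4.60e-04, and 1.13 ± 0.24 for Col4a2, with an adjusted p of 0.00199. Without ipsilateral 24 h replicate 1 the effect on Col4a1 was 1.03 and on Col4a2 0.76, and both calls held. The effects of Col4a1 within the 3 surgery days were 2.33, 1.10 and 0.75 on the log2 scale, higher in 3 of 3.

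At the earlier times Col4a1 had 48.5, 63.6 and 66.4 CPM in ipsilateral cortex at 3 h, against 33.0, 56.0 and 48.3 CPM in contralateral cortex, and the groups overlapped. At 6 h it had 99.3, 125 and 103 CPM in ipsilateral cortex, against 72.9, 60.6 and 74.1 CPM in contralateral cortex. At 12 h it had 66.4, 60.2 and 98.1 CPM in ipsilateral cortex, against 52.3, 42.3 and 35.1 CPM in contralateral cortex. The groups did not overlap at 6 or 12 h, yet the 6 h difference missed the threshold in the model of all 27 libraries. The 12 h rise of 0.79 ± 0.25 (adjusted p = 0.0422) missed it with a block for surgery day (adjusted p = 0.0631), and without any of 4 libraries, ipsilateral 12 h replicates 1 and 3 and contralateral 12 h replicates 2 and 3 (adjusted p = 0.0812 to 0.219). The sham level of Col4a1 was 42.9, 57.4 and 57.4 CPM.

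**Figure D3:**
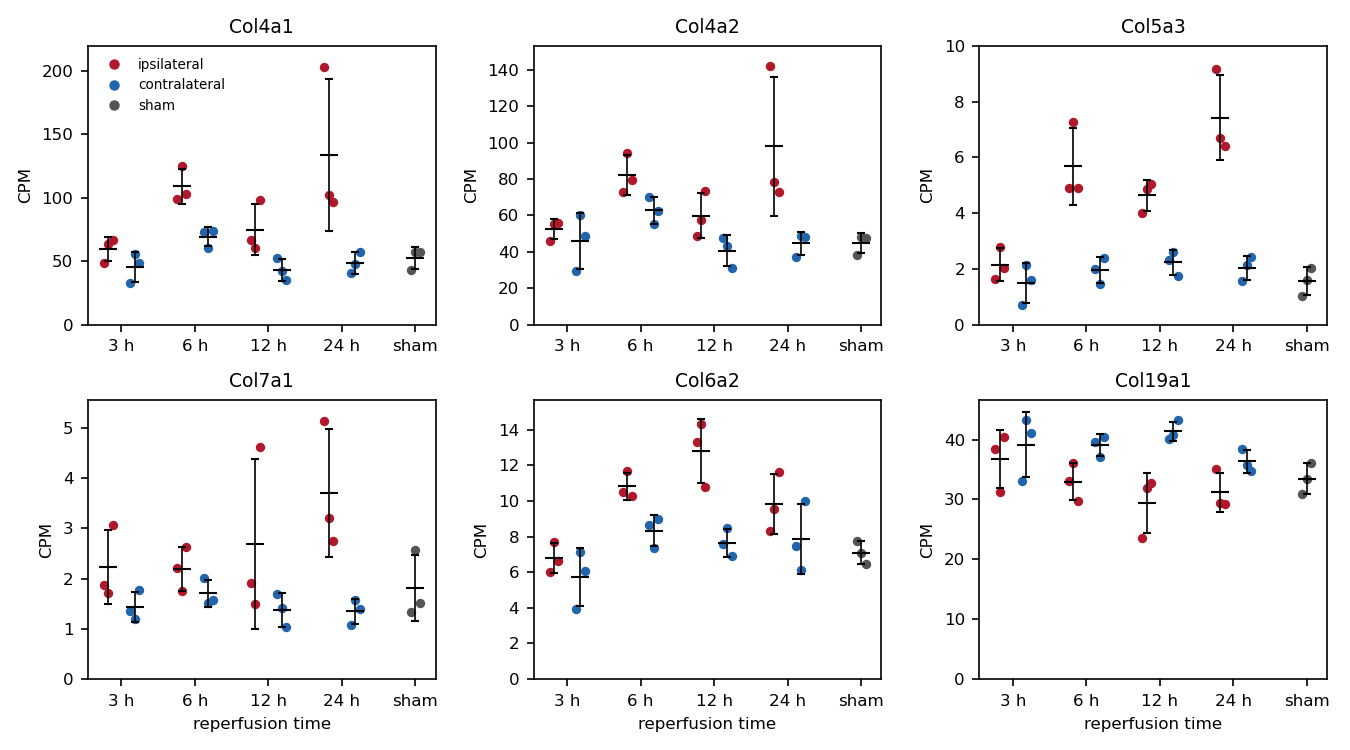
CPM of 6 collagen genes in every library by reperfusion time, ipsilateral left of contralateral, with sham at the right; points are libraries, and bars give the mean and SD of 3. In Col4a1, Col4a2 and Col5a3 the ipsilateral libraries at 24 h sit above the contralateral ones, 1 of them (203 CPM of Col4a1) well above the other ipsilateral ones, while Col19a1 is lower in ipsilateral cortex at 12 h.

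The ratio of Col4a1 to Col4a2 in RPKM at 24 h was 1.26, 1.16 and 1.17 in ipsilateral libraries, against 0.958, 0.873 and 1.06 in contralateral ones. At 6 h it was 1.21, 1.17 and 1.15 in ipsilateral libraries, against 0.920, 0.969 and 1.05 in contralateral ones, again without overlap. At 12 h ipsilateral replicate 2, at 0.928, fell among the contralateral values of 0.869 to 1.00. In sham cortex the ratio was 0.988, 1.05 and 1.07. The difference of the ratio between groups was not tested. Together the 2 genes made up 54.5%, 42.9% and 41.0% of the summed collagen RPKM in ipsilateral cortex at 24 h, against 24.3%, 28.6% and 34.2% in contralateral cortex and 25.3%, 28.1% and 27.7% in sham.

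**Figure D4:**
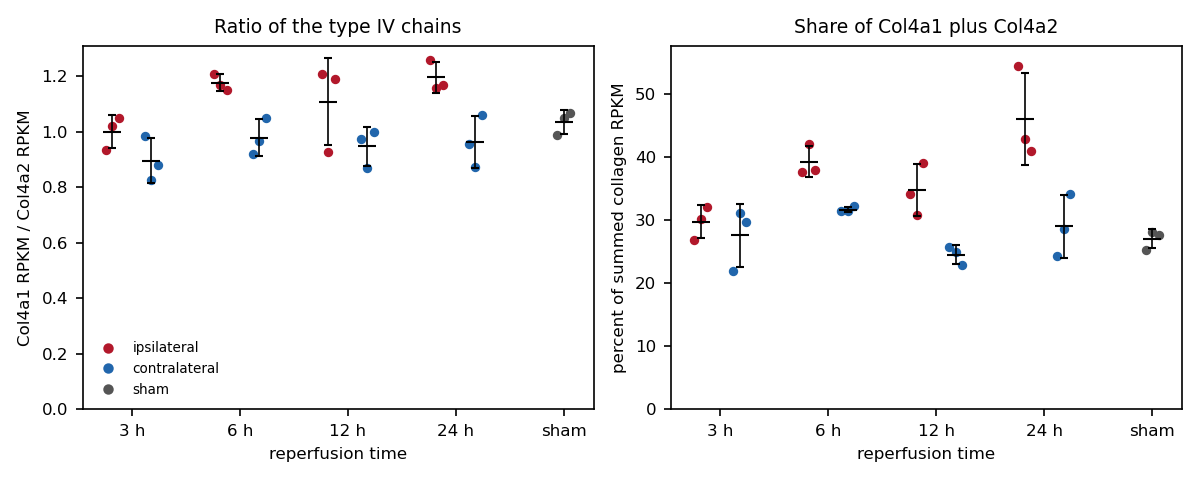
Left, the ratio of Col4a1 to Col4a2 RPKM, and right, the percent of summed collagen RPKM taken by these genes, in every library by reperfusion time, ipsilateral left of contralateral and sham at the right, with mean and SD of 3. At 24 h the ipsilateral ratios (1.16 to 1.26) and shares (41.0% to 54.5%) lie above the contralateral ones (0.873 to 1.06, and 24.3% to 34.2%).

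Col4a1 (chr8:11198423-11312826, minus strand, mm10) and Col4a2 (chr8:11312805-11449287, plus strand) lie head to head, with starts that RefSeq (GRCm38.p6) places 21 bases apart. The promoter window of Col4a2 (chr8:11312555-11312854), 300 bases long, covers both starts. It is shown because it holds the starts of both paired genes that rose. It is not the promoter window of Col4a1, which is chr8:11312777-11313076 and overlaps only the last part of the run. Most of the printed run lies inside the Col4a1 gene. In the run below, read on the strand of Col4a2, capitals mark CCAAT boxes (CCAAT) and GC boxes (GGGCGG) on either strand, which do not overlap each other here.
Col4a2 promoter window: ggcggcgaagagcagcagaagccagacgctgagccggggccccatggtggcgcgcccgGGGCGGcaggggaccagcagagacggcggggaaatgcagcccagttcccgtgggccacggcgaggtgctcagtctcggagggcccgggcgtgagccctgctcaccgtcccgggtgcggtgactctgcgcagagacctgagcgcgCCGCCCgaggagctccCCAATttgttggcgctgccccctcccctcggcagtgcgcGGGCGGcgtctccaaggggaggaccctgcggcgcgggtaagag
It holds 1 CCAAT box and 3 GC boxes, and 73.7% of its bases are G or C. Of 32851 RefSeq promoter windows of this length 37.4% hold a CCAAT box and 35.7% a GC box. Of the 35 collagens with a window 13 hold the first and 22 the second. The collagens are counted by gene, with a match in any of their windows (38 in all), and the shares by window. The motif TGANTCA, bound by AP-1 factors, was in the windows of 1 of these 35 collagens (Col6a1) and in 7.8% of all windows. A match to such letters is a description and not a binding site.

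Many collagens are known targets of the miR-29 family, whose members share a seed, the bases 2 to 8 that pair with a target. The mature sequences from RefSeq are shown with the seed in capitals, since the sites that follow are its complement.
miR-29a-3p: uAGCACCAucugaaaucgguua
miR-29b-3p: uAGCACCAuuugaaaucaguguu
miR-29c-3p: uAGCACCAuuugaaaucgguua
In the longest coding transcript of GENCODE M21 (GRCm38), 16 of the 43 collagens with an annotated 3′ untranslated region held an 8mer, the complement of the seed followed by A (37.2%, beside 3.23% of 15542 tested genes with such a region). Counting also matches without the A, 25 of 43 held a site (58.1%, beside 14.8%). Sites of the 4 collagens whose 24 h calls against contralateral cortex held under every alternative run are printed with the match in capitals.
Col4a1 at chr8:11199755-11199782, minus strand: ccaccgtcacaacaTGGTGCTActcccc
Col4a2 at chr8:11448345-11448371, plus strand: tgggaaggccacgtTGGTGCTtatcct
Col4a2 at chr8:11448516-11448542, plus strand: caccacacccagctTGGTGCTtactct
Col5a3 at chr9:20770775-20770801, minus strand: ccacatgggctcctTGGTGCTgaggct
Col5a3 at chr9:20770497-20770524, minus strand: tccaccaggcctttTGGTGCTAttcctt
Col5a3 at chr9:20770246-20770272, minus strand: atcaggatcctacaTGGTGCTgccctg
Col7a1 at chr9:108984581-108984608, plus strand: tgctgtgctccattTGGTGCTAgagttg
Col7a1 at chr9:108984813-108984839, plus strand: aggctgtgataccaTGGTGCTgatggg
Of the 25 collagens with a site 8 rose at 24 h, and their median log2 fold change was 0.52, from -0.40 to 2.09. Of the 18 without one 1 rose (Col10a1), and their median was 0.15, from -0.78 to 1.48. Of all tested genes with such a region 12.1% of those with a site and 10.3% of those without one rose. The regions of the first were longer, with a median of 1315 bases against 879. With the 8mer alone 5 of 16 with a site rose, against 4 of 27 without, and 13.9% and 10.4% of all tested genes. Col4a5, a type IV chain with 3 such 8mers, had a log2 fold change of 0.07 ± 0.29 at 24 h and was not called. The levels of miR-29 were not analysed here, and a seed match is not a measured site.

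The other type IV chains, which serve the basement membranes of tissues such as kidney, lung and smooth muscle, were not called at any time in ipsilateral against contralateral cortex. Col4a5 was the highest of them at 0.676 RPKM, and Col4a3 and Col4a4 were at 0.0577 and 0.0537 RPKM. In the whole family 2 of 6 members rose at 24 h, with a median log2 fold change of 0.466.

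Of the 2 multiplexins, basement membrane collagens with heparan or chondroitin sulfate chains, Col18a1, the source of endostatin, rose at 24 h. It had 11.8, 7.48 and 4.45 CPM in ipsilateral cortex, against 4.37, 4.19 and 4.62 CPM in contralateral cortex. Ipsilateral replicate 3 lay inside the contralateral range. Its log2 fold change was 0.84 ± 0.25 (adjusted p = 0.0185), and without ipsilateral 24 h replicate 1 it was 0.43 (adjusted p = 0.256). The call was also lost without contralateral 24 h replicate 1 or 2 (adjusted p = 0.0605 and 0.0660). An antisense neighbour, Slc19a1, overlaps 8825 bases of Col18a1 and had a log2 fold change of -0.25, so reads of the 2 genes may be mixed if strand was not used in counting. Col15a1 had a log2 fold change of 0.12 ± 0.26 and was not called.

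Among the 11 fibrillar chains 4 rose at 24 h, 2 of them (Col5a3, Col2a1) also without ipsilateral 24 h replicate 1, beside 9.74% of all genes, and the family median was 0.655 on the log2 scale. Col5a3, a minor chain of type V collagen, was the collagen with the smallest adjusted p at 6 and 24 h and in the mean of the 4 times. It had 9.17, 6.70 and 6.41 CPM in ipsilateral cortex at 24 h, against 1.57, 2.13 and 2.42 CPM in contralateral cortex and 1.04, 1.62 and 2.04 CPM in sham. The log2 fold change against contralateral cortex was 1.86 ± 0.29, with an adjusted p of 8.28e-05. At 6 h it had 4.89, 7.26 and 4.89 CPM in ipsilateral cortex, against 2.00, 1.47 and 2.39 CPM in contralateral cortex. That difference of 1.54 ± 0.29 (adjusted p = 0.00104) was the only collagen call at 6 h and held under every alternative run. At 12 h the rise was 1.05 ± 0.29 (adjusted p = 0.0171), with no overlap of the groups. It missed the threshold without ipsilateral replicate 3 (adjusted p = 0.0589), contralateral replicate 1 (adjusted p = 0.0534) or contralateral replicate 3 (adjusted p = 0.0905).

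The main chain of the same type, Col5a1, moved less. At 24 h it had 9.81, 11.1 and 14.9 CPM in ipsilateral cortex, against 8.38, 9.55 and 6.27 CPM in contralateral cortex, without overlap. The log2 difference was 0.57 ± 0.23 (adjusted p = 0.0785). It passed with a correction for GC content (0.65, adjusted p = 0.0182), also with the replicate block added (adjusted p = 0.0226). Without contralateral 3 h replicate 1 and ipsilateral 24 h replicate 1 together it passed too (0.69, adjusted p = 0.0212). The ratio of Col5a3 to Col5a1 in RPKM was 1.17, 0.752 and 0.537 in ipsilateral libraries, against 0.234, 0.278 and 0.480 in contralateral ones and 0.117, 0.193 and 0.207 in sham. All ipsilateral ratios at 24 h lay above all contralateral and sham ratios; the difference was not tested. Col5a2 had 5.93, 4.61 and 2.92 CPM in ipsilateral cortex at 24 h, against 3.46, 2.41 and 1.65 CPM in contralateral cortex, and the groups overlapped. Its rise of 0.83 ± 0.28 (adjusted p = 0.0336) was lost without either of ipsilateral 24 h replicates 1 and 2 or contralateral 24 h replicates 2 and 3 (adjusted p = 0.0800 to 0.204).

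Col2a1, the cartilage fibrillar chain, had the largest fold change at 24 h among the collagens called but very few reads, 3 to 81 counts over all libraries. It had 2.22, 0.977 and 1.38 CPM in ipsilateral cortex at 24 h, against 0.212, 0.281 and 0.581 CPM in contralateral cortex. The groups did not overlap, and the log2 fold change was 2.09 ± 0.55 (adjusted p = 0.00810); without contralateral 24 h replicate 1 it was 1.81 (adjusted p = 0.0524). At 12 h it was 1.01, 0.343 and 1.71 CPM in ipsilateral cortex, against 0.669, 0.139 and 0.0835 CPM in contralateral cortex, with overlap. The 12 h effect of 1.80 ± 0.57 (adjusted p = 0.0362) became 3.13 without ipsilateral 12 h replicate 2 and 1.22 without ipsilateral 12 h replicate 3. It was lost without ipsilateral replicate 1 or 3 or contralateral replicate 2 or 3 (adjusted p = 0.0947 to 0.240), and with a block for surgery day within each time (adjusted p = 0.0511).

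Col11a1, which sets fibril diameter in cartilage, had 10.3, 5.64 and 5.27 CPM in ipsilateral cortex at 24 h, against 3.14, 5.22 and 2.44 CPM in contralateral cortex. The closest libraries, 5.27 and 5.22 CPM, nearly met. Its log2 fold change was 0.97 ± 0.34 (adjusted p = 0.0436), falling to 0.59 without ipsilateral 24 h replicate 1 (adjusted p = 0.266), and the call was also lost without contralateral 24 h replicate 1 or 3 (adjusted p = 0.148 and 0.168) and with a block for surgery day within each time (adjusted p = 0.119).

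Type I and type III chains, the bulk collagens of fibrous tissue, were not called at any single time in the model of all 27 libraries. At 24 h Col1a1 had 5.41, 7.62 and 4.87 CPM in ipsilateral cortex, against 6.18, 2.22 and 2.90 CPM in contralateral cortex, with overlap. Col1a2 had 15.9, 12.9 and 10.7 CPM in ipsilateral cortex, against 21.3, 10.4 and 10.9 CPM in contralateral cortex, also with overlap. Their log2 fold changes were 0.66 ± 0.53 and -0.11 ± 0.31. Col3a1 had 7.42, 5.02 and 6.11 CPM in ipsilateral cortex at 24 h, against 5.46, 1.66 and 2.53 CPM in contralateral cortex. It rose in the mean of the 4 times by 0.83 ± 0.19 on the log2 scale (adjusted p = 0.00171). At 24 h Col3a1 had 0.94 ± 0.38 (adjusted p = 0.0858). It passed at 24 h with a block for surgery day within each time (adjusted p = 0.00726). Without contralateral 24 h replicate 1 it also passed (1.55, adjusted p = 0.00899).

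Col11a2 was the most abundant fibrillar chain by all exons, at 1.68 RPKM, while by the longest transcript Col1a2, at 2.69 RPKM, was above Col11a2, at 1.91 RPKM. Against sham it was lower in ipsilateral cortex at 12 h, with 7.73, 9.69 and 11.1 CPM against 12.6, 16.2 and 15.7 CPM in sham. At 24 h it had 11.1, 8.01 and 8.39 CPM in ipsilateral cortex and 6.71, 7.91 and 8.85 CPM in contralateral cortex. The 12 h call was lost without ipsilateral 12 h replicate 1 or 2 or sham replicate 2 or 3 (adjusted p = 0.0612 to 0.205). All libraries of both hemispheres at 24 h lay below all sham libraries. The log2 fold change at 24 h was -0.70 ± 0.20 in ipsilateral cortex against sham (adjusted p = 0.0120; 0.0543 to 0.0571 without ipsilateral 24 h replicate 2 or 3 or sham replicate 2) and -0.92 ± 0.20 in contralateral cortex against sham (adjusted p = 0.0568). With a block for surgery day the contralateral difference passed (adjusted p = 0.0460), and so it did in DESeq2 (adjusted p = 0.00417). Ipsilateral and contralateral cortex at 24 h differed by 0.23 ± 0.20.

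FACIT collagens attach to the surface of fibrils. Of 9 members 1 rose at 24 h and 0 fell, which is near the 9.74% of all genes that rose, and the median log2 fold change was 0.0954. Col16a1, the member that rose, had 18.3, 16.7 and 11.9 CPM in ipsilateral cortex, against 6.96, 10.7 and 10.5 CPM in contralateral cortex. The groups did not overlap and the difference was 0.73 ± 0.25 (adjusted p = 0.0370). The call was lost without any one of 5 of the 6 libraries compared (adjusted p = 0.0511 to 0.190) and held only without ipsilateral 24 h replicate 3. Col12a1 rose in the mean of the 4 times by 0.22 ± 0.07 (adjusted p = 0.0257), a call lost in 6 of the 24 fits that leave out 1 library (adjusted p = 0.0527 to 0.0627).

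Col19a1, a FACIT-like collagen made by interneurons and tied to synapse formation in mouse, was the collagen that fell in ipsilateral against contralateral cortex. At 12 h it had 23.6, 31.9 and 32.7 CPM in ipsilateral cortex, against 40.1, 40.8 and 43.2 CPM in contralateral cortex and 30.9, 33.4 and 36.1 CPM in sham. The ipsilateral libraries all lay below the contralateral ones but overlapped sham, while the contralateral libraries all lay above sham. Against sham Col19a1 was called in neither hemisphere at any time. The log2 fold change against contralateral cortex was -0.50 ± 0.13 (adjusted p = 0.0109), and without ipsilateral 12 h replicate 1 it was -0.36 (adjusted p = 0.126). In the mean of the 4 times it was -0.26 ± 0.06 (adjusted p = 0.00217). At 24 h it had 35.0, 29.4 and 29.2 CPM in ipsilateral cortex, against 38.5, 35.8 and 34.8 CPM in contralateral cortex, and was not called.

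Type VI chains form beaded filaments between basement membrane and matrix. Col6a2 rose at 12 h, with 13.3, 14.3 and 10.8 CPM in ipsilateral cortex, against 7.58, 8.46 and 6.90 CPM in contralateral cortex and 7.74, 7.08 and 6.47 CPM in sham. The groups did not overlap, and the effect of 0.74 ± 0.19 (adjusted p = 0.00836) held under every alternative run. At 24 h the effect on Col6a2 was 0.33 ± 0.19 and was not called. Its partner Col6a1, the most abundant chain of the family, had 21.9, 17.7 and 21.3 CPM in ipsilateral cortex at 24 h, against 16.0, 23.1 and 14.1 CPM in contralateral cortex. These groups overlapped, and the log2 fold change was 0.20 ± 0.20. Col6a5, at 0.0491 RPKM, rose in the mean of the 4 times by 0.77 ± 0.24 (adjusted p = 0.0154).

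Col7a1, the anchoring fibril collagen of skin, was scarce and rose at 24 h. It had 5.14, 3.21 and 2.74 CPM in ipsilateral cortex, against 1.08, 1.57 and 1.39 CPM in contralateral cortex. All ipsilateral libraries lay above all contralateral ones, and above all sham libraries, which reached 2.57 CPM. The log2 fold change was 1.45 ± 0.35 (adjusted p = 0.00412). Col10a1, the short-chain collagen of hypertrophic cartilage, had 2.42, 2.01 and 2.80 CPM in ipsilateral cortex at 24 h, against 0.658, 0.960 and 0.976 CPM in contralateral cortex, without overlap. Its log2 fold change was 1.48 ± 0.40 (adjusted p = 0.00908; 0.0543 without contralateral 24 h replicate 1). Col10a1 lies whole, over 7105 bases, inside the antisense gene Nt5dc1, which rose at 24 h by 1.07 ± 0.25 (adjusted p = 0.00338). The strand setting of the counting is not given in the sources used here, so reads of these 2 genes cannot be told apart.

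The level of Col8a2 was highest in the 5 libraries with the most choroid plexus marker RNA, and Col8a1 and Col9a3 were high in some of them. The summed CPM of 10 choroid plexus markers was 741 in ipsilateral 3 h replicate 1, 425 in contralateral 6 h replicate 1, 350 in ipsilateral 6 h replicate 1, 194 in contralateral 24 h replicate 1 and 85.7 in contralateral 12 h replicate 1. In the other 22 libraries it was lower in every case, down to 4.83. In the 5 named libraries, in the same order, Col8a2 had 6.82, 4.86, 2.57, 3.16 and 2.23 CPM, and in the other 22 it had 0.470 to 1.93 CPM. Col8a1 had 15.3, 8.60, 6.69, 7.39 and 4.88 CPM in the 5, and 2.39 to 6.65 CPM in the others. Col9a3 had 11.9, 9.92, 6.78, 4.78 and 6.55 CPM in the 5, and 3.05 to 7.37 CPM in the others. All 5 libraries are replicate 1, which is 1 surgery day only if equal numbers at different times mark the same day.

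These 3 genes were among the 7 collagens with an unadjusted p under 0.05 at 3 h. Col8a1 differed between ipsilateral and contralateral cortex at 3 h by 1.18 ± 0.41 on the log2 scale (adjusted p = 0.282) and Col9a3 by 0.94 ± 0.25 (adjusted p = 0.133). Without ipsilateral 3 h replicate 1 the differences were 0.28 (adjusted p = 0.748) and 0.67 (adjusted p = 0.336). For Col8a2 the difference was 1.70 ± 0.73 (adjusted p = 0.405) with that library and 0.63 (adjusted p = 0.751) without it. The part of choroid plexus RNA in the 6, 12 and 24 h values of these genes was not tested.

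**Figure D5:**
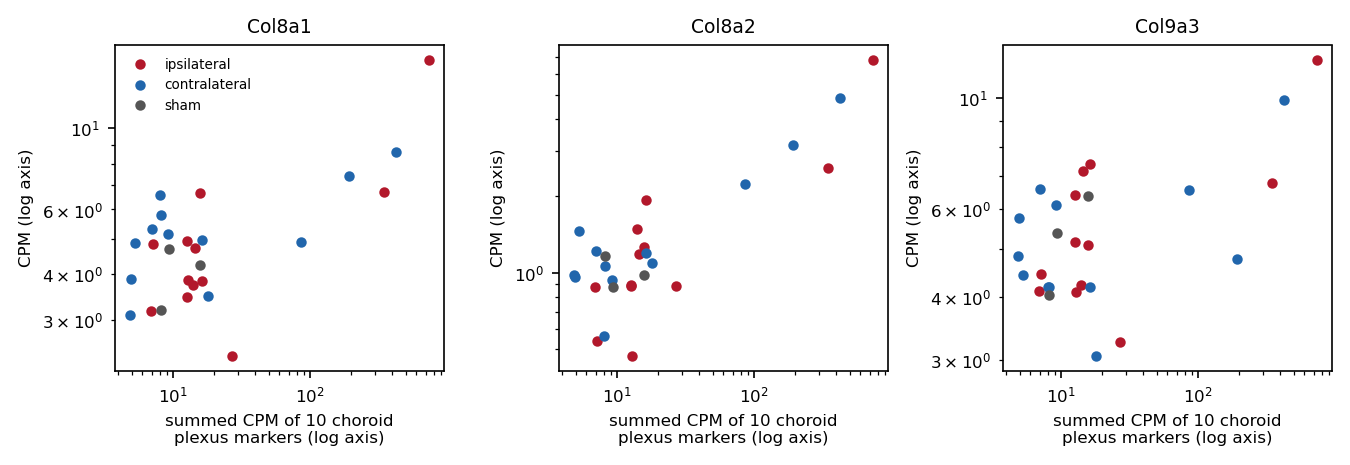
CPM of Col8a1, Col8a2 and Col9a3 against the summed CPM of 10 choroid plexus markers, both on log axes, with 1 point per library coloured by hemisphere or sham. The 5 libraries with marker sums of 85.7 to 741 hold the 5 highest Col8a2 values (2.23 to 6.82 CPM).

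None of the 4 transmembrane collagens was called in ipsilateral against contralateral cortex. Col25a1, a neuronal collagen known for its presence in amyloid plaques, had 48.6, 32.4 and 40.5 CPM in ipsilateral cortex at 24 h, against 53.7, 64.7 and 40.4 CPM in contralateral cortex and 57.1, 73.0 and 76.0 CPM in sham. All ipsilateral libraries lay below all sham libraries, while they overlapped the contralateral ones. Its log2 fold change was -0.39 ± 0.26 against contralateral cortex (adjusted p = 0.327) and -0.76 ± 0.26 against sham (adjusted p = 0.0413). The call against sham was lost without ipsilateral 24 h replicate 2 or 3 or sham replicate 2 or 3 (adjusted p = 0.0961 to 0.138). Col23a1 had 5.69, 6.95 and 8.81 CPM in ipsilateral cortex at 24 h, against 8.17, 10.4 and 5.88 CPM in contralateral cortex, with overlap and a log2 fold change of -0.18 ± 0.20. Beside these values, 6 of 10 neuron markers fell at 24 h and 0 rose, against 9.36% and 9.74% of all genes, and the summed level of the 10 was 3431, 3318 and 3746 CPM in ipsilateral cortex, against 5305, 5026 and 5197 CPM in contralateral cortex. The part of neuron RNA in the lower values of Col19a1 and Col25a1 was not tested.

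Against sham, whose 3 libraries all 8 of these comparisons share, ipsilateral cortex had 8 collagens higher and 2 lower at 24 h, where 11.3% and 10.9% of all genes rose and fell. The 8 were Col4a1, Col4a2, Col18a1, Col5a3, Col2a1, Col12a1, Col7a1 and Col10a1, and the 2 were Col11a2 and Col25a1. Without ipsilateral 24 h replicate 1, 5 of the 8 rises were lost: Col18a1 (0.47, adjusted p = 0.190), Col7a1 (0.70, adjusted p = 0.183), Col2a1 (1.47, adjusted p = 0.0814), Col12a1 (0.44, adjusted p = 0.0642) and Col10a1 (1.20, adjusted p = 0.0529). Those of Col4a1, Col4a2 and Col5a3 held. At 12 h 2 rose (Col5a3, Col6a2) and 1 fell (Col11a2), against 6.58% and 3.72% of all genes. At 6 h 5 rose (Col4a1, Col4a2, Col5a3, Col6a2, Col10a1) and 0 fell, against 5.03% and 1.09% of all genes. Leaving out 1 of the 6 libraries compared lost the 6 h call of Col6a2 each time (adjusted p = 0.0598 to 0.212). Those of Col4a2 and Col10a1 were each lost in 4 of these 6 fits, while that of Col5a3 held. At 3 h edgeR called 0, against 0.227% higher and 0.0166% lower of all genes. There 5 of 44 collagens had an unadjusted p under 0.05, beside 1551 of the 18087 tested genes. Without sham replicate 1, 2 or 3 in turn the 24 h count was 6 each time and the 6 h count was 1, 2 and 3; the 6 h count was also 3 without ipsilateral 6 h replicate 1 and 1 without ipsilateral 6 h replicate 2. Col5a3 had a log2 fold change against sham of 1.86 ± 0.30 at 6 h, 1.57 ± 0.30 at 12 h and 2.25 ± 0.30 at 24 h. Col4a1 had 1.05 ± 0.25 at 6 h (adjusted p = 0.0139) and 1.35 ± 0.25 at 24 h (adjusted p = 7.01e-04); without sham replicate 1 the 6 h value was 0.93 (adjusted p = 0.0808), and without ipsilateral 6 h replicate 2 it was 0.94 (adjusted p = 0.0874).

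In contralateral cortex against sham edgeR called 0 collagens at each of the 4 times, where almost no gene was called. Of all genes 0% rose and 0.0111% fell at 3 h, 0% and 0.0332% at 6 h, 0.0940% and 0.144% at 12 h, and 0.0276% and 0.0829% at 24 h. At an unadjusted p under 0.05 there were 4, 1, 4 and 5 of 44 collagens at 3, 6, 12 and 24 h. Among the 18087 tested genes there were 1563, 778, 1348 and 1171 at the same times. DESeq2 called 1 collagen, Col11a2, at 24 h. Col4a1 in contralateral cortex at 24 h, at 40.4 to 57.6 CPM, overlapped sham, at 42.9 to 57.4 CPM.

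The test that the ipsilateral to contralateral effect differs between the 4 times called 0 of 44 collagens in edgeR, against 1.34% of all genes. At an unadjusted p under 0.05 there were 9 of 44, beside 3005 of the 18087 tested genes. The smallest adjusted p of a collagen was 0.0901 (Col9a3), and DESeq2 called 1, the same Col9a3. Col5a3 passed this test with a correction for GC content (adjusted p = 0.0467) and with that correction and the replicate block (adjusted p = 0.0427). It also passed without contralateral 3 h replicate 1 (adjusted p = 0.0472). In the uncorrected edgeR model of all 27 libraries the larger number of calls at 24 h is therefore not shown to differ by time for any single collagen.

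The machinery that makes collagen also rose in part. Of 18 modifying enzymes and chaperones 6 rose and 0 fell at 24 h, where 9.74% of all tested genes rose and 9.36% fell, and their median log2 fold change was 0.366. At 12 h and at 6 h 4 rose and 0 fell, against 7.94% and 5.85% of all genes higher. Without ipsilateral 24 h replicate 1 the 24 h count was 4, and without ipsilateral 24 h replicate 3 it was 9. Serpinh1, which encodes the collagen chaperone HSP47, had 44.7, 51.0 and 21.1 CPM in ipsilateral cortex at 24 h, against 10.8, 11.8 and 6.41 CPM in contralateral cortex. Its groups did not overlap, and the log2 fold change was 2.01 ± 0.33 (adjusted p = 3.03e-04). Plod2, a lysyl hydroxylase, rose by 0.82 ± 0.20, and P4ha1 and P4ha3, catalytic chains of prolyl 4-hydroxylase, by 0.62 ± 0.15 and 1.05 ± 0.28; P4ha3 was not called without ipsilateral 24 h replicate 1 (0.78, adjusted p = 0.0771). P4ha1 is a known target of hypoxia signalling and Serpinh1 of heat shock signalling.

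Of 18 genes for trimming and cross-linking 3 rose and 1 fell at 24 h, beside 9.74% and 9.36% of all genes. The lysyl oxidases Loxl1, Loxl2 and Lox rose by 1.89 ± 0.40, 1.47 ± 0.32 and 1.39 ± 0.48 on the log2 scale, and Adamts2, which removes the amino propeptide, fell by 0.58. Lox was scarce, with 2.86, 0.726 and 1.20 CPM in ipsilateral cortex, against 0.552, 0.281 and 0.976 CPM in contralateral cortex, and its groups overlapped. Without ipsilateral 24 h replicate 1 Loxl1 and Loxl2 still rose, by 1.34 and 0.88, while Lox (0.68, adjusted p = 0.383) and Adamts2 (-0.56, adjusted p = 0.0805) were not called.

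Of 15 other basement membrane genes 6 rose and 2 fell at 24 h, beside 9.74% and 9.36% of all genes; without ipsilateral 24 h replicate 1, 3 rose and 2 fell. Nid2, a nidogen that links laminin to type IV collagen, had 5.22, 2.51 and 3.48 CPM in ipsilateral cortex, against 1.68, 1.33 and 1.44 CPM in contralateral cortex, without overlap. It rose by 1.33 ± 0.27 (adjusted p = 9.87e-04), and Lamc1, a laminin chain, by 0.57 ± 0.12. Hspg2, encoding perlecan, had 72.9, 31.4 and 12.4 CPM in ipsilateral cortex, against 12.1, 9.39 and 8.43 CPM in contralateral cortex. Ipsilateral replicate 1 was far the highest and replicate 3 nearly met the contralateral libraries; the rise was 1.96 ± 0.41 with replicate 1 and 1.12 (adjusted p = 0.0141) without it. Lamc3, another laminin chain, fell, with -0.85 ± 0.20. Of 9 collagen receptors 5 rose and 0 fell at 24 h, beside the same shares of all genes; 3 rose without ipsilateral 24 h replicate 1 and without contralateral 24 h replicate 2 or 3. Itgb1, the shared chain of the collagen-binding integrins, had 101, 68.9 and 59.1 CPM in ipsilateral cortex, against 48.0, 45.6 and 41.8 CPM in contralateral cortex, without overlap. The other receptors named by smallest p were Ddr2, a collagen-activated receptor kinase (1.29 ± 0.27), Lair1, an inhibitory receptor of leukocytes (0.69 ± 0.19), and Itga1 (0.73 ± 0.22). Without ipsilateral 24 h replicate 1 Itgb1, Ddr2 and Lair1 still rose, by 0.49, 1.08 and 0.62, while Itga1 was not called (0.51, adjusted p = 0.141).

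Markers of the vessel and matrix cells moved as follows at 24 h. Of 10 endothelial markers 4 rose (Emcn, Pecam1, Cdh5, Kdr) and 1 fell (Slco1a4), beside 9.74% and 9.36% of all genes; without ipsilateral 24 h replicate 1 edgeR called 0 of the 10 (adjusted p = 0.0897 to 0.395 for the 4). With all libraries their summed level was 445, 299 and 238 CPM in ipsilateral cortex, against 288, 287 and 282 CPM in contralateral cortex. Of 10 mural cell markers 1 rose (Kcnj8; adjusted p = 0.199 without that library), with sums of 167, 155 and 151 CPM in ipsilateral cortex, against 164, 164 and 154 CPM in contralateral cortex. Of 12 fibroblast and meningeal markers 0 were called in edgeR. An unadjusted p under 0.05 was found for 5 of them, beside 5842 of the 18087 tested genes. The sums of the 12 were 98.9, 65.7 and 47.5 CPM in ipsilateral cortex, against 39.8 to 96.5 CPM in contralateral cortex. The sums overlapped between hemispheres in all 3 lists. Ipsilateral 24 h replicate 1 had the highest endothelial sum of all libraries. It was also the highest library for every collagen that rose at 24 h against contralateral cortex except Col10a1. The part of vessel cell RNA in the collagen values was not tested; without that library Col4a1, Col4a2, Col5a3, Col7a1, Col2a1 and Col10a1 still rose against contralateral cortex.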

How the data were processed

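Gene counts were used as deposited by the authors. The submitters' processing notes name STAR 2.5.0a, featureCounts 1.4.3-p1, edgeR (no version or role) and the build mm10. The annotation, like the strand setting, is not given in the sources used here. Distinct surgery days are named in the labels but no animals, so p-values measure the spread between these libraries.

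The 27 libraries were fitted in 1 edgeR 4.0.16 quasi-likelihood model (R 4.3.3; filterByExpr, minimum count 10, minimum total 15; TMM; 1 mean per group, no block), with Benjamini-Hochberg adjustment over 18087 genes at 0.05; checked on simulated data. Exon lengths, positions and 3′ ends came from GENCODE M21 by symbol, and 22186 of 22340 symbols matched. Alternatives were RLE factors, DESeq2 1.42.0, other filters, a GC correction, only the compared groups, blocks for replicate number and libraries left out.

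Replicate numbers were taken as surgery days, also across groups. After removal of group means same-numbered libraries correlated at 0.0475 on average (single pairs -0.121 to 0.257) and others at -0.0237 (-0.198 to 0.214). Removing the means of groups of 3 ties the second average to the first, so it adds no separate comparison. Hemispheres of one time and number correlated at 0.125, 0.0451, 0.0430 and 0.142 at 3, 6, 12 and 24 h. Given in full are collagens past the threshold in ipsilateral against contralateral cortex at 24 h, and the 10 with the highest mean RPKM; other genes come from fixed lists, at most 4 per list by smallest p. Further collagens are named where a comparison called them. Members, lists and this rule were chosen with earlier results of these data known. Col21a1 was not analysed here.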

Additional observations from a re-analysis of the deposited data

How the results depend on the processing

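The counts of called collagens were recomputed under 252 alternatives, and 213 stayed within 1.5 times the value reported. The 213 include counts of 0 that stayed 0, in comparisons such as 3 h and contralateral cortex against sham, where almost no gene was called. Ipsilateral against contralateral at 6 h (1 collagen) became 2 with RLE factors, the 1 CPM filter, either replicate block, the GC correction, and the GC correction with the replicate block; 3 in DESeq2 and without contralateral 3 h replicate 1 and ipsilateral 24 h replicate 1 together; and 6 with only the compared groups. At 3 h (0) DESeq2 gave 1. Against sham with only the compared groups, 6 h (5) became 8 and 12 h (3) became 7. Contralateral against sham at 24 h (0) became 1, Col11a2, with the replicate block, the GC correction, both together, only the compared groups, the same 2 libraries left out, and DESeq2. The test of differing effects (0) became 1 with the GC correction and with it and the replicate block (Col5a3 each time), and in DESeq2 (Col9a3). The replicate block changed no other count by over 1.5 times. Leaving out 1 library gave 0 to 1 at 3 h, 1 to 2 at 6 h, 2 to 8 at 12 h and 6 to 10 at 24 h in ipsilateral against contralateral cortex; against sham 1 to 4 at 6 h, 2 to 4 at 12 h and 6 to 9 at 24 h; and 0 to 1 in the test of differing effects. At 24 h the 6 came without contralateral 24 h replicate 1 and without ipsilateral 24 h replicate 1, and against sham without sham replicate 1, 2 or 3. Without contralateral 24 h replicate 1 the 6 include Col3a1, which is not among the 10 called with all libraries. At 12 h the 2 came without ipsilateral replicate 1 or 3 or contralateral replicate 3, and the 8 without ipsilateral replicate 2. Over 587 single-gene alternatives 57 lost the call, and the cause was not tested. None changed direction. These were collagens already called, refitted on the same libraries or a part of them, so a change of direction was unlikely beforehand. The 587 leave out fits against sham without 1 library, and the mean of the 4 effects for collagens called at 24 h against contralateral cortex. Further calls were lost there, such as Col6a2 against sham at 6 h in 6 of 6 fits without 1 library. In the mean Col5a2 was lost in 13 of 24 such fits. By longest transcript Col25a1 gained the most RPKM (4.48 to 8.65). With 3 libraries a group, effects of low-count genes such as Col2a1 and Col6a6 are the least certain.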
